A study of Caenorhabditis elegans with 2 samples.

Results

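The 14-3-3 genes ftt-2 and par-5 are the 2 members described here, of 19973 protein-coding genes on the nuclear chromosomes, and they were chosen on peak values of these data, namely the strong region listed at ftt-2. ftt-2 (WBGene00001502) lies on X at chrX:11603708-11605419 and par-5 (WBGene00003920) on an autosome at chrIV:11820506-11821924, both on the minus strand of ce11. 14-3-3 proteins are dimeric adaptors that bind client proteins at phosphorylated serine or threonine and change where the client sits or what it binds. In C. elegans, PAR-5 is needed to keep the anterior and posterior PAR proteins apart in the zygote, and FTT-2 binds the FOXO transcription factor DAF-16 and holds it in the cytoplasm.

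The assay was ChIP-seq for the zinc finger protein ZTF-3 in strain OP614, which carries unc-119(tm4063) and the transgene wgIs614 with ztf-3::TY1::EGFP::3xFLAG and unc-119(+). Per the labels the fusion is stable and C-terminal, and the precipitating antibody is described as anti-GFP, while a separate antibody field names ztf-3. Whole young adults of mixed sex, 58 hours old and synchronised by L1 starvation after bleaching, gave 1 group of 2 samples with biological replicate numbers 4 and 5. All tissues, the germline included, were in each sample, so a region cannot be assigned to a cell type. Whether native ztf-3 was also present is not stated in the labels. No untagged strain and no expression data were analysed here, so whether a region is binding of ZTF-3, and whether it bears on either gene's activity, was not tested.

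Each replicate has a list of 30000 candidate regions made against a control, peaks and background together, and a pooled list of 30000 was made from both replicates. The thresholded list holds 534 regions kept by the authors' irreproducible discovery rate threshold, and these were the 534 pooled regions of highest signal. A place in it does not show that a region was strong in both replicates. Of the 534 summits, 527 lay in a region of both replicate lists. Signal is the authors' strength score per region and has its own scale in each list, with a median of 28.0 in the pooled list, 22.6 in replicate 4 and 9.86 in replicate 5. It is used here to describe and rank regions inside a list, where rank 1 is the strongest. The lists hold no read counts, so the depth and the precision of a signal are unknown. In both replicate lists, 128 regions had the same coordinates, a count that leaves out regions that overlap with shifted summits.

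The regions that carry the description are 3 at ftt-2 and 2 at par-5, shown here because the positions, base composition and word matches described below rest on them. Each sequence was read 5′ to 3′ on the minus strand, the strand of both genes, from the RefSeq WBcel235 assembly, which has the ce11 coordinates. The promoter sequence runs from 250 bases before to 50 bases after the furthest upstream start of par-5 and holds that gene's strongest summit, and the others take in a pooled summit and 50 bases on either side. Capitals mark a match on either strand to any word searched, AGAGAC or ACGCAG or GAGAGA or ACACAC or GACGCA or AGACGCAG or TATAAA.
ftt-2 upstream, rank 124, chrX:11606142-11606242: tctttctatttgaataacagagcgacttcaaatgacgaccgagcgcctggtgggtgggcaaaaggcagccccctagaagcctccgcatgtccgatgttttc
ftt-2 upstream, rank 14, chrX:11605942-11606042: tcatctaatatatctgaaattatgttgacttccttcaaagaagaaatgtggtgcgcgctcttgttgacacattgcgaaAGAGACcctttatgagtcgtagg
ftt-2 downstream, rank 192, chrX:11603435-11603535: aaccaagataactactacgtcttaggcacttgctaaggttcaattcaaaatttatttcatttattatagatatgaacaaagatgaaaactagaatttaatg
par-5 promoter, with the summit of rank 346, chrIV:11821875-11822174: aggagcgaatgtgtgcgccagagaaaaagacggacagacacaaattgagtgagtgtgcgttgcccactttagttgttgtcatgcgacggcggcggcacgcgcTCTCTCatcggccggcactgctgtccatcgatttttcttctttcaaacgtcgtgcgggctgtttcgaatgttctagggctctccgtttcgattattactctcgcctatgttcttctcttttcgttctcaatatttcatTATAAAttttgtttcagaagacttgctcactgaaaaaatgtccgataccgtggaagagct
par-5 downstream, rank 623, chrIV:11819830-11819930: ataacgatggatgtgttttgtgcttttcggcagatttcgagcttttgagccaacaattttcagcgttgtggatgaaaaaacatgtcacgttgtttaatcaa

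ftt-2 had strong regions on both sides of the gene. Within 5 kb of it lay 7 pooled, 6 replicate 4 and 6 replicate 5 regions, and 3 of the pooled regions were thresholded. Over all coding genes, 6.96% had at least 1 thresholded region at this distance and 0.0901% at least 3. The strongest, chrX:11605770-11606213, had its summit 573 and 580 bp upstream of the 2 annotated starts of ftt-2 and ranked 14 in the pooled list with a signal of 245. In replicate 4 the region holding this summit had a signal of 161 and ranked 25, and in replicate 5 it had a signal of 89.1 and ranked 7. It was therefore near the top of both replicate lists, and 15 of the 527 thresholded regions listed in both replicates ranked 25 or better in each. Among regions on X alone its rank was 5 of 5684 pooled regions, 8 of 5849 in replicate 4 and 3 of 5355 in replicate 5.

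A further upstream region, chrX:11605970-11606413, shared 244 bp with the strongest, and its summit stood 200 bp beyond it, 773 and 780 bp upstream of the starts. Its pooled signal was 123 (rank 124), with 84.9 (rank 154) in replicate 4 and 42.8 (rank 80) in replicate 5. Because fragments were sonicated to 200 to 800 bp per the labels, the overlapping pair cannot be told apart from 1 broad region by these lists. The summits of the pair in replicate 5 lay 42 and 41 bp closer to the gene than those in replicate 4. Shifts of similar size, but away from the gene, were seen at the other strong regions described below. These were 45 bp at the downstream ftt-2 region, 40 bp at the par-5 promoter region and 34 bp at the downstream par-5 region.

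The upstream pair fell among non-coding RNA genes. Within 500 bp of both summits lay F52D10.7, F52D10.9, F52D10.11 and F52D10.12, annotated as ncRNA with no further role given. The strongest summit was 3 bp from F52D10.7, 137 bp from F52D10.9, 213 bp from F52D10.12 and 248 bp from F52D10.11. The second summit lay inside F52D10.9. In replicate 5 the strongest summit lay inside F52D10.7, so its place in or beside that gene differed between the replicates. Of the 4 RNA genes, F52D10.11 is on the plus strand, overlapping F52D10.12, and the rest are on the strand of ftt-2. How often regions of these lists have an ncRNA gene this near was not counted, so nothing particular to ftt-2 is read from it.

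The third strong region lay past the 3′ end of ftt-2, at chrX:11603263-11603706. Its summit was 223 bp beyond the annotated end, 1927 and 1934 bp downstream of the starts, and no non-coding RNA gene lay within 500 bp. Its pooled signal was 106 (rank 192), with 70.8 (rank 277) in replicate 4 and 34.5 (rank 163) in replicate 5. All 3 strong regions thus stood among the 534 strongest of each replicate list as well as of the pooled list. The nearest coding genes were F52D10.4, 12051 bp upstream, and F52D10.2, 11988 bp downstream, so no other coding gene lay within 5 kb of these regions.

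The gene body of ftt-2 held weaker regions. A pooled region with its summit in an intron had a signal of 43.2 (rank 3506). The region holding that summit had a signal of 34.7 (rank 3398) in replicate 4 and ranked 1230 in replicate 5, with its summit in a coding exon. A region in a coding exon 281 bp downstream of the start had a pooled signal of 21.6 (rank 26913) and was listed in replicate 5 (10.5, rank 12595) and not in replicate 4. The other 2 pooled regions, 3230 and 3588 bp upstream, ranked 17526 and 19816 and were listed in replicate 4 only. These lists keep background as well as peaks, and whether such weak entries are background was not tested.

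**Figure D1:**
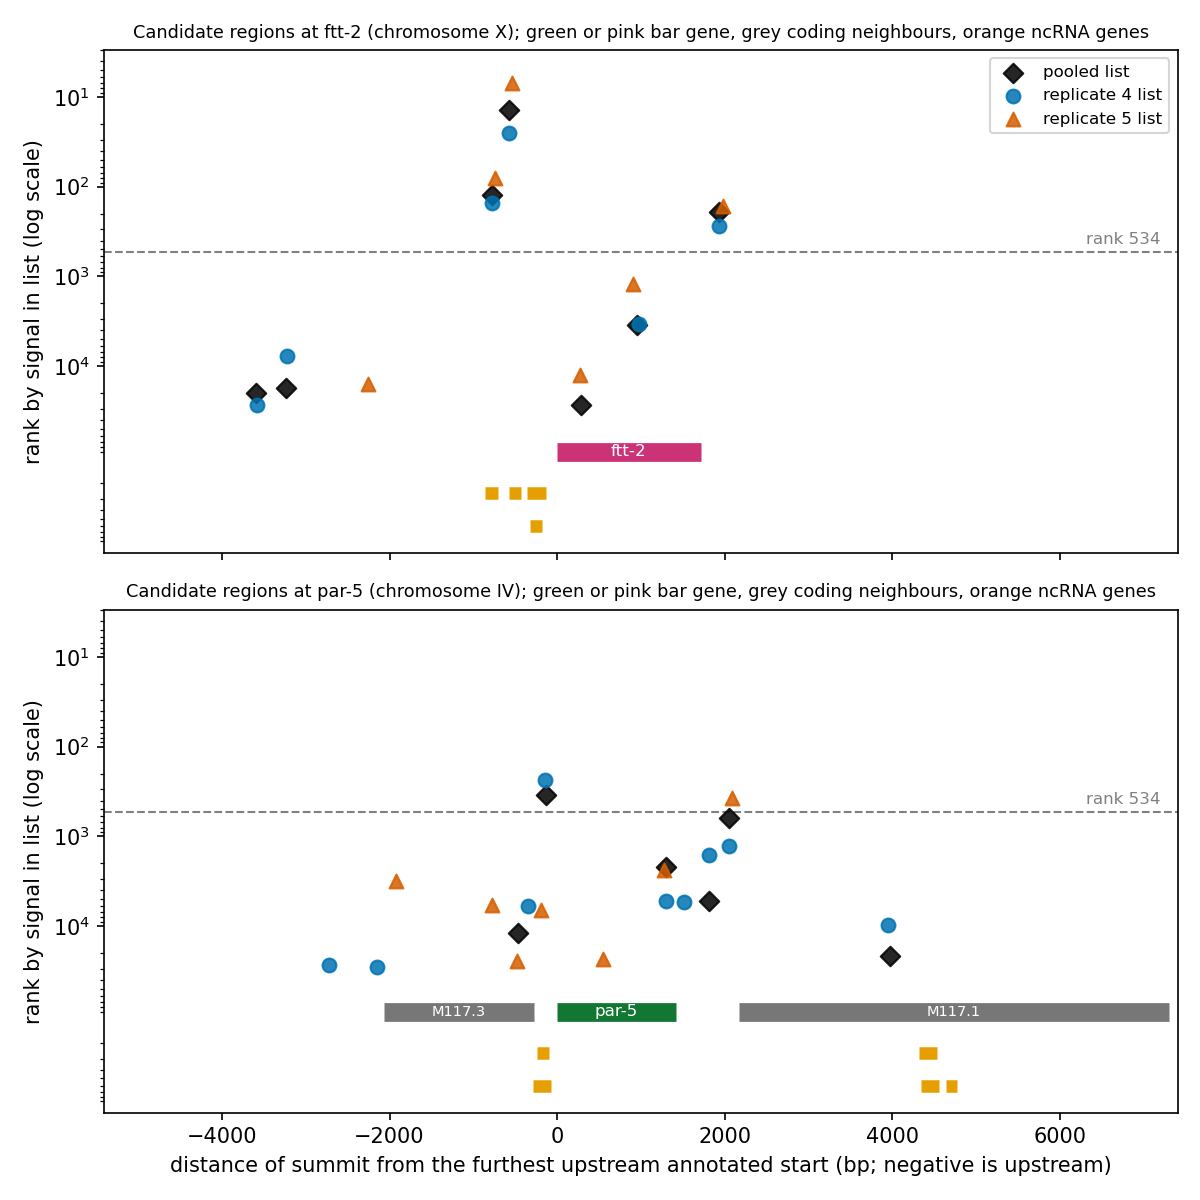
Rank by signal (vertical, log scale, strongest at the top) of every candidate region within 5 kb of ftt-2 (upper panel) and par-5 (lower panel), against the distance in bp of its summit from the furthest upstream start of the gene (negative is upstream). Diamonds are the pooled list, circles replicate 4 and triangles replicate 5, the dashed line is rank 534, and bars show the gene, its coding neighbours (grey) and ncRNA genes (orange, with those on the plus strand in the lowest row). At ftt-2 all 3 strong regions lie above the line in every list, whereas the par-5 promoter region is above it in the pooled list and replicate 4 only.

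par-5 had 1 thresholded region, at its promoter, and the replicates differed there. Within 5 kb of par-5 lay 6 pooled, 9 replicate 4 and 7 replicate 5 regions. The thresholded region, chrIV:11821839-11822282, had its summit 137, 144 and 643 bp upstream of the 3 annotated starts and a pooled signal of 85.2 (rank 346). Its signal was 74.8 (rank 236) in replicate 4 and 13.0 (rank 6631) in replicate 5. It was thus among the 534 strongest of replicate 4 and far outside them in replicate 5. Its deposited −log10 q, the significance of the signal, was 2.20 in replicate 4 and 0.53 in replicate 5. Such a gap in rank was not particular to this region. Of the 527 thresholded regions listed in both replicates, 46 ranked beyond 5000 in replicate 5 alone, the par-5 region among them. In replicate 4 alone, 3 did so. Thresholded regions missing from a replicate list are left out of these counts.

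The par-5 promoter is shared ground. The coding gene M117.3 starts 282 bp away on the opposite strand, and the thresholded summit lay 145 bp upstream of that start, against 137 bp for par-5. In replicate 4 and replicate 5 the summit was nearer to the start of M117.3, at 135 and 95 bp. The summit also lay inside 2 ncRNA genes that overlap on opposite strands, M117.11 and M117.12. These lists cannot assign the region to any of the 4 genes. Both the ftt-2 and the par-5 upstream summits have ncRNA genes on both strands within 500 bp. At ftt-2, however, the plus-strand gene F52D10.11 lies outside both pooled upstream regions. The share of all regions with such genes was not counted. The divergent coding gene is 282 bp away at par-5 and 12051 bp away at ftt-2.

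A second par-5 region lay past the 3′ end, as at ftt-2, and fell outside the threshold. The region was chrIV:11819658-11820101, and its summit was 626 bp beyond the annotated end of par-5 and 122 bp from the end of M117.1, the convergent coding gene on that side. Its signal was 70.7 (rank 623) in the pooled list, 44.5 (rank 1275) in replicate 4 and 26.8 (rank 378) in replicate 5. The threshold fell between pooled ranks 534 and 535, both with a signal of 74.7, so this region was outside it and the promoter region, at 85.2 (rank 346), inside it. By the deposited −log10 q the pooled order of the par-5 regions turns, with 1.99 at the promoter region and 2.05 at the downstream one. The order of the par-5 regions changed between replicates, with the promoter region stronger in replicate 4 and the downstream region stronger in replicate 5. In replicate 5 the downstream region was the only par-5 entry among the 534 strongest.

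The other par-5 regions were weaker in the pooled list. A region with its summit in the 3′ UTR had a signal of 48.7 (rank 2193) in the pooled list, 31.1 (rank 5324) in replicate 4 and 17.0 (rank 2400) in replicate 5. A region 393 bp past the end overlapped the downstream one by 211 bp, with a pooled signal of 38.7 (rank 5316), and was listed in replicate 4 (41.9, rank 1616) and not in replicate 5. The remaining pooled regions, in an intron of M117.3 and in a coding exon of M117.1, ranked 11823 and 21567.

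**Figure D2:**
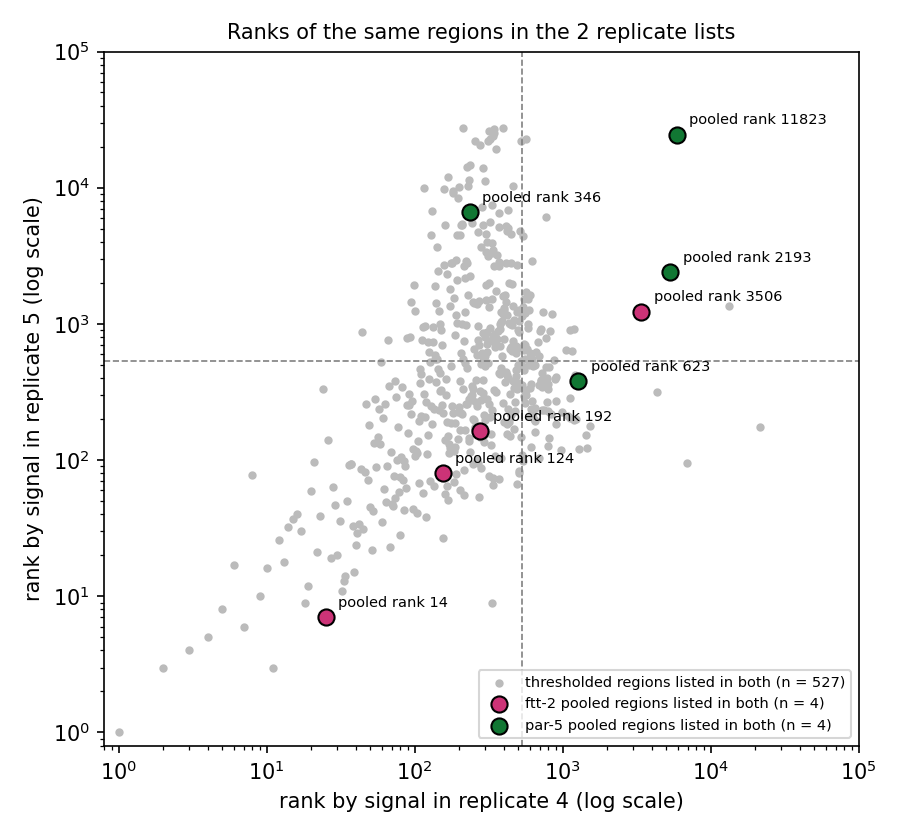
Rank by signal in replicate 4 (horizontal) and replicate 5 (vertical), both on log scales, for the 527 thresholded regions listed in both replicates (grey) and for the pooled regions at ftt-2 (pink) and par-5 (green) listed in both, labelled with their pooled rank. Dashed lines mark rank 534. The ftt-2 regions of pooled rank 14, 124 and 192 are inside both lines, that of par-5 with pooled rank 346 is inside the line of replicate 4 only, and that with pooled rank 623 is inside the line of replicate 5 only.

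Set side by side, the X-linked gene had the stronger region at either end in every list. The regions compared are those that hold the strongest pooled summit within 1 kb of that end. Upstream, the signal at ftt-2 was 2.87 times that at par-5 in the pooled list, 2.16 times in replicate 4 and 6.86 times in replicate 5. In replicate 5 the par-5 region used (13.0) was not the strongest there, as another, 778 bp upstream, had a signal of 13.5 (rank 5778). Downstream, the ratio was 1.50 in the pooled list, 1.59 in replicate 4 and 1.29 in replicate 5. The upstream ratio moved more between replicates than the downstream one, and it was the par-5 promoter signal that ranked differently in them. The pooled list was made from the same replicates and is no further independent measurement. There is 1 gene of each kind and the genes were chosen for these values, so the ratios are descriptions and no test of X against autosome was possible.

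**Figure D3:**
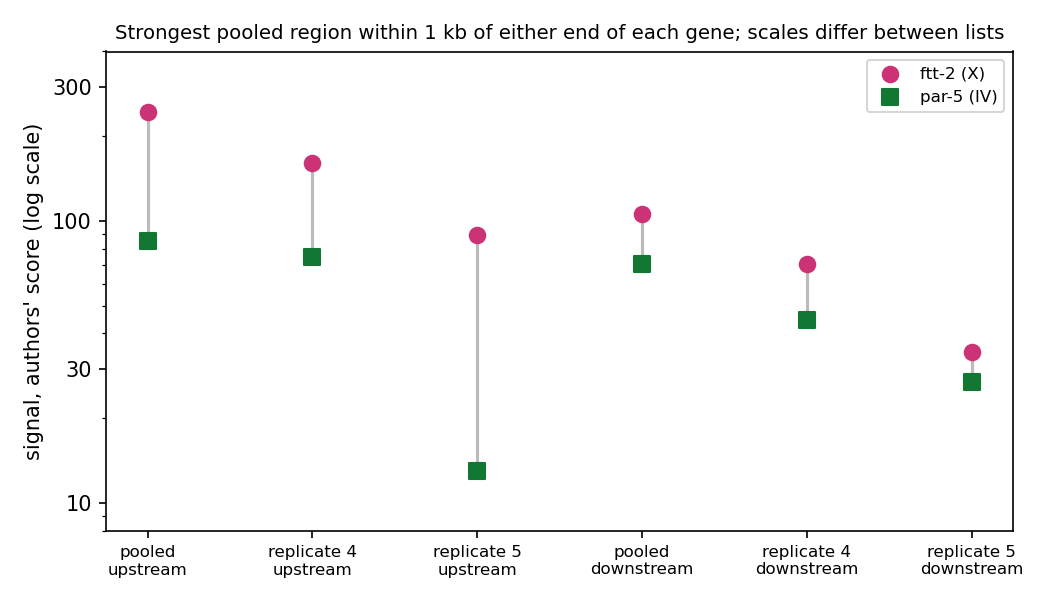
Signal (authors' score, log scale) of the strongest pooled region within 1 kb upstream and within 1 kb downstream of ftt-2 (circles, X) and par-5 (squares, IV), and of the replicate regions that hold the same summits. A line joins the 2 genes in each list; scales differ between lists, so only points joined by a line are comparable. The widest gap is upstream in replicate 5, 89.1 against 13.0, and the narrowest is downstream in replicate 5, 34.5 against 26.8.

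Read against all coding genes, a thresholded region near a gene was uncommon. A thresholded region touched the gene or the 5 kb on either side at 6.96% of 19973 protein-coding genes, at 8.71% of the 2731 on X, 5.12% of the 3281 on IV and 6.69% of the 17242 on autosomes. Both members had one, and nothing is read from this, since the strong region at ftt-2 led to their choice. At least 3 thresholded regions, the count at ftt-2, were found at 18 genes (0.0901%). This count takes the overlapping upstream pair at ftt-2 as 2 regions, and nothing is read from it either, for the same reason. A thresholded summit in the promoter window, from 1000 bp upstream to 200 bp downstream of any start, was found at 309 genes (1.55%), both members included. Of pooled candidate regions, the median gene had 4 within 5 kb, 19.3% of genes had at least the 7 of ftt-2 and 28.2% at least the 6 of par-5.

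Strong regions at both ends were also counted over all genes, a pattern looked for after the positions at the members were seen. Taking the 1000 strongest pooled regions, 2.05% of genes had a summit within 1000 bp upstream, 1.86% within 1000 bp downstream and 38 genes (0.190%) both. ftt-2 and par-5 are 2 of the 38, with 2 upstream summits and 1 downstream summit at ftt-2 and 1 of each at par-5. The cut of 1000 is looser than the threshold, and par-5 meets the rule only because of it. Its downstream region, of pooled rank 623, is outside the threshold. Both members meet the rule by ranks and positions already seen, so nothing is read from their place among the 38. The downstream par-5 summit also lies downstream of M117.1, and the promoter summit also upstream of M117.3.

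The FTT-2 and PAR-5 proteins are close in sequence, while base composition varied among the summits of each gene. Translated from the annotated coding sequence, both proteins have 248 residues, and 213 of 247 aligned residues are the same (86.2%). The last 20 aligned columns hold 8 identities and the rest 205 of 228 (89.9%), and 82 identical residues are written with different codons. At the summits, GC content within 50 bp was 39.6% at the strongest ftt-2 summit, 52.5% at the second and 26.7% downstream. It was 57.4% at the par-5 promoter summit and 37.6% downstream. The median was 41.6% over all pooled summits and 48.5% over the thresholded ones. The downstream ftt-2 window was poor in GC, as 4.33% of pooled and 1.31% of thresholded windows had as little, and the par-5 promoter window was rich, with 97.1% of pooled and 91.2% of thresholded windows at or below it.

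**Figure D4:**
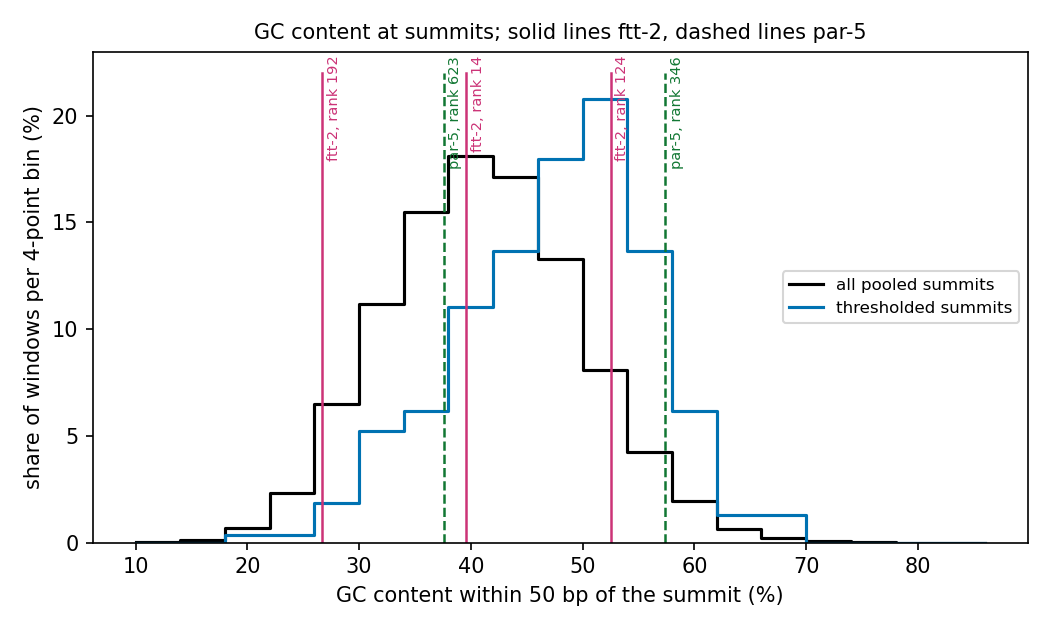
Distribution of GC content (%) within 50 bp of the summit at all 30000 pooled summits (black) and the 534 thresholded summits (blue), as the share of windows per bin, with vertical lines at the ftt-2 (solid) and par-5 (dashed) summits labelled with their pooled rank. The members' values run from 26.7% at the downstream ftt-2 summit to 57.4% at the par-5 promoter summit.

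Of the words searched, chosen with earlier results of these data known, 3 were found within 50 bp of a pooled summit at either gene. AGAGAC stood 30 bp from the strongest ftt-2 summit and was in 5.31% of all pooled windows and 18.7% of thresholded windows (95% exact binomial interval 15.5 to 22.3%). GAGAGA, read as TCTCTC on the strand shown above, stood 9 bp from the par-5 promoter summit and was in 8.55% of pooled and 21.9% of thresholded windows (18.5 to 25.7%). These words share the letters GAGA and can overlap, but neither window held the other's word. Earlier work on these data named all the words except TATAAA, so their shares in thresholded windows are no independent support for them. ACACAC was found at the ftt-2 summit of pooled rank 3506, in an intron. The other pooled summits at ftt-2 and par-5 held none of the words. ACGCAG was in 75 of 534 thresholded windows and 3.45% of pooled ones, ACACAC in 17.6% and 5.42%, and TATAAA in 7.49% and 7.18%. GACGCA was in 12.4% of thresholded and 3.44% of pooled windows, and AGACGCAG, which contains it and ACGCAG, in 7.68% and 1.26%. TATAAA was in the promoter of both genes, read on either strand, between 250 bases before and 50 after the start, as in 37.9% of all 19973 promoters of this length. In these promoters, which are longer than the summit windows, GAGAGA was in 21.8% and AGAGAC in 14.4%. A GT run of 22 bp at chrX:11599025-11599046 was the only perfect dinucleotide run of 20 bp or more within 5 kb of a member, and no summit at ftt-2 was within 200 bp of it.

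The genes with ranks most like those of ftt-2 were ins-13 (insulin family peptide), cest-16 (carboxylesterase family), rpl-15 (ribosomal protein) and cbp-1 (histone acetyltransferase). Likeness was the distance in log10 rank over the pooled, replicate 4 and replicate 5 lists, taking in each list the strongest region whose nearest coding start is the gene's, among 9473 genes listed in all 3. The distances were 0.18 for ins-13, which ranked 15, 18 and 9, then 0.28 for cest-16, 0.33 for rpl-15 and 0.35 for cbp-1. For par-5 this rule gave ranks of 346, 1275 and 378, because the promoter region is nearer to M117.3 in both replicate lists and the downstream region takes its place. The nearest to par-5 were Y65B4A.2 (distance 0.16), plg-1 (0.17), Y48B6A.1 (0.21) and Y22D7AL.4 (0.22). The lists share libraries, and closeness of rank shows nothing beyond strength.

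Genes of pathways in which 14-3-3 proteins act, and a mixed list whose binding to 14-3-3 is not certain for all members, were also counted. In these 5 lists of 45 genes, 5 had one within 5 kb (11.1%, against 6.96% of all genes) and 1 in the promoter window (2.22%, against 1.55%). Among PAR polarity genes it was 1 of 10: par-3, the PDZ scaffold of the anterior PAR complex, with a signal of 80.6 at 2335 bp past its end. Without one, pkc-3, the atypical protein kinase C of that complex, had a strongest pooled signal by nearest start of 73.4 (rank 561), the kinase gene par-1 61.3 (rank 980), mex-5 51.2 and par-6 46.5. None of 13 insulin and FOXO genes had one, and the highest values were 54.6 at daf-16, the FOXO factor itself, 53.2 at age-1 (PI3 kinase), 51.0 at daf-2 (the insulin receptor) and 46.6 at pdk-1.

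Of 8 Ras, Raf and MAP kinase genes, mpk-1 (ERK) had an intronic region with a signal of 75.5 (rank 515), and the next were sos-1 at 36.1 and lin-45 (Raf) at 33.5. None of 6 cell cycle and checkpoint genes had one, with 45.0 at wee-1.3 and 44.4 at cdc-25.2 as the highest. In the mixed list of 8 other signalling genes, which gave 3 of the 5 genes with a thresholded region, kin-29 (salt-inducible kinase family) had a promoter region 307 bp upstream with a signal of 102 (rank 216). There hda-4 (class II histone deacetylase) had one 2618 bp upstream at 92.8 (rank 281) and tra-2 (sex determination) one 2641 bp upstream at 76.6 (rank 491), while crtc-1 stood at 57.6 without one. All of these signals are below the 245 of ftt-2, and that of kin-29 and that of hda-4 are above the 85.2 of par-5. The strong region at ftt-2 led to the choice of the members, so nothing is read from this order. By nearest start, 39 of the 45 genes had a pooled region, with a median strongest rank of 6800, against 10080 over 12706 of all coding genes; gene length was not matched.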

How the data were processed

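ChIP-seq of GFP-tagged ZTF-3 was analysed in 2 biological replicates. Per the file headers, the authors derived each replicate's candidate list from its alignments and a control, the pooled list from both replicates, and the thresholded list from these by the irreproducible discovery rate, on ce11. Neither aligner nor peak caller is named in these sources. The deposited signal is a score per region. The deposited −log10 q gives its significance. The deposited summit offset placed each summit. Depth is unknown.

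Here regions were ranked by signal within each list and placed on Ensembl release 115 genes; any overlap with a gene and 5000 bp around counted. A replicate region matched when it held the pooled summit. Proteins were aligned globally with Biopython 1.88 and tables made with pandas 2.3.3. The overlap counts were tested on simulated data. Non-coding RNA genes exclude pseudogenes. No hypothesis test was run. Members, lists and words were chosen with earlier results of these data known. Named genes are the members, genes within 5 kb, the 4 nearest in rank, and listed genes with a thresholded region or otherwise up to 4 of highest signal per list. Alternatives changed the flank, overlap, ranking value, RNA gene distance, promoter window and threshold, or left out a replicate.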

Additional observations from a re-analysis of the deposited data

How the results depend on the processing

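Of the values recomputed under alternatives, 26 stayed within the allowed range and 10 moved. Staying within that range did not mean being unchanged. The best ftt-2 rank of 14 became 7 without replicate 4 and 25 without replicate 5. Regions within 5 kb of par-5 went from 6 to 9 without replicate 5. These 3 values were counted as within range. Ranked by −log10 q, the strongest ftt-2 region tied with others from rank 1 to rank 153, and the par-5 promoter region stood at rank 678, behind the downstream one. Non-coding RNA genes at the strongest ftt-2 summit numbered 2 at a distance of 200 bp. With a flank of 10 kb, 11 pooled regions lay at par-5, and among the 267 strongest thresholded regions it had 0. The best rank at par-5 ran from 236 without replicate 5 to 378 without replicate 4, and these are different regions, the promoter one and the downstream one. The share of genes with a thresholded region was 3.29% with a flank of 1 kb and 1.55% in the promoter window. The count of thresholded regions at ftt-2 was 3 under all 5 alternatives, which for a left-out replicate took the 534 strongest regions of the other. With no read counts and no untagged control, the lists cannot show how precise a signal is or whether a weak entry is background.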
